A study of Mus musculus with 8 samples.

Results

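The genes described are 9 of the 19024 gene symbols in the expression matrices: B2m and 8 heavy-chain genes of MHC class I, H2-K1, H2-D1, H2-Q4, H2-Q6, H2-Q7, H2-T22, H2-T23 and H2-M3. They were taken by symbol from all 8 matrices, and every symbol was found in every cell class. Class I molecules carry short peptides from inside the cell to its surface. Each is a heavy chain paired with beta-2-microglobulin, the product of B2m, without which most heavy chains do not reach the surface. H2-K1 and H2-D1 are the classical heavy chains that show peptides to CD8 T cells and hold back NK cells through Ly49 receptors. The nonclassical genes H2-Q4, H2-Q6 and H2-Q7 lie in the Q region, and H2-Q6 and H2-Q7 encode the Qa-2 antigen. H2-T23 encodes Qa-1, the ligand of the CD94 and NKG2A receptor pair, H2-T22 is a ligand of some gamma delta T cell receptors, and H2-M3 presents peptides with formylated ends. Interferons and NF-kB raise transcription of most of these genes, and neutrophils, macrophages, dendritic cells and lymphocytes all carry class I on their surface.

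The libraries came from subcutaneous tumors of MB49, a mouse urothelial cancer line isogenic with C57BL/6J mice. In 4 libraries (3, 4, 7 and 8) the host was C57BL/6 UbcreERT2/+;Atg7f/f, whose floxed copies of Atg7, an autophagy enzyme gene, are removed after tamoxifen. In the other 4 (1, 2, 5 and 6) the host was C57BL/6 UbcreERT2/+;Atg7+/+, here called wild type. Both groups carried the tamoxifen-activated Cre, which is not limited to 1 cell type, and both received tamoxifen on 4 days, MB49 cells 1 week later in the flanks with 2 tumors per mouse, and tumor collection 3 weeks after injection. The injected cells carry no deletion of Atg7 made in the host. The labels do not say which tumors came from the same mouse, so libraries of a group may share an animal and p-values may be too small. Dissociated cells passed a density gradient, which can change the numbers of neutrophils and other types, and were run with a 10x Genomics 5′ kit, so a count is a molecule (UMI) read from the first bases of its RNA.

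After filters, 28488 of 29496 cells remained, 938 to 5796 per library. Library totals lay between 4279268 UMIs (deleted library 7) and 58687129 UMIs (wild-type library 6), and the median per cell was 1741 to 3987.5 in deleted hosts and 5846.5 to 9543.5 in wild-type hosts. Cells were sorted into 7 classes named from marker genes, each written "-like", without using the 9 genes. The barcodes fell into 2 sets, libraries 1 to 4 and libraries 5 to 8, each with 2 deleted and 2 wild-type libraries. Within-set values are therefore given beside pooled ones. At most 46 barcodes were shared by a pair of libraries (5 and 8). Atg7 UMIs outside the malignant-like class stood at 0.0716, 0.125, 0.0444 and 0.186 per 10000 in deleted libraries 3, 4, 7 and 8, against 0.306, 0.329, 0.110 and 0.144 in wild-type libraries 1, 2, 5 and 6, so the groups overlapped. The labels do not say which exons are floxed, and 5′ reads from kept exons would remain.

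The sequences upstream of the RefSeq starts show which letters the members share, both those whose RNA rose and those whose RNA did not pass the test. In RefSeq (GRCm38.p6), H2-K1, H2-D1, H2-Q6 and H2-Q7 hold the NF-kB site of class I promoters, the first letters in capitals in H2-K1 below, within 250 bases before the start. Of all 32851 gene starts, 0.0852% hold it there, both strands being searched for every motif. TTTCACTT, the core of the class I interferon element, was searched after reading these windows. It is in 7 members (H2-K1, H2-D1, H2-Q4, H2-Q6, H2-Q7, H2-T22 and H2-M3) and in 1.36% of starts. The interferon-stimulated element, a pair of GAAA runs with 2 free bases between them, is in B2m, H2-T22 and H2-T23 and in 2.98% of starts, and its match in H2-T22 overlaps that of TTTCACTT. The palindromic NF-kB site and TGACGTCA, the cyclic AMP response element, match in none of the 9 windows, against 0.0335% and 1.55% of starts. The stretches below are from the 3 members that rose in neutrophil-like cells, from H2-D1, which has the same 2 motifs and did not pass the test there, and from B2m and H2-T22, with the matches in capitals.
H2-K1, chr17:34000409-34000478, minus strand: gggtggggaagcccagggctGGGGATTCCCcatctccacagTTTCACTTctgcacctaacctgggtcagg
H2-Q6, chr17:35424657-35424726, plus strand: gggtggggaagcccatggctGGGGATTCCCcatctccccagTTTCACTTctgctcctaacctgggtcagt
H2-Q7, chr17:35439001-35439070, plus strand: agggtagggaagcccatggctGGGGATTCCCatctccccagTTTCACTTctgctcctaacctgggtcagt
H2-D1, chr17:35262923-35262952, plus strand: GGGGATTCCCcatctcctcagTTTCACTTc
B2m, chr2:122147518-122147587, plus strand: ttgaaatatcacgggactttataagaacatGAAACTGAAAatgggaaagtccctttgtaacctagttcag
H2-T22, chr17:36042895-36042964, minus strand: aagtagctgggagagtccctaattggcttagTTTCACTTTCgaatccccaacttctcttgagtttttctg

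The NF-kB letters begin 173, 133 and 171 bases upstream of the start in H2-Q6, H2-Q7 and H2-D1 and the interferon core 152, 113 and 150 bases upstream. H2-K1 has 2 starts in RefSeq, with the NF-kB letters 125 or 111 bases and the core 104 or 90 bases upstream. These matches are descriptions of the letters only. All 9 genes are protein coding in the GENCODE M21 annotation of mm10. The H2-D1 stretch above is upstream of the RefSeq start but inside the GENCODE gene, so only 30 bases of it are printed. B2m lies on chromosome 2 at 122147686 to 122153083 on the plus strand. The heavy chains lie on chromosome 17, from H2-K1 at 33996017 to 34000347 (minus) through H2-D1 at 35262730 to 35267499 (plus), H2-Q4 at 35379617 to 35385290 (plus), H2-Q6 at 35424850 to 35430055 (plus) and H2-Q7 at 35439155 to 35443773 (plus). H2-T23 at 36029773 to 36032855 (minus), H2-T22 at 36037128 to 36042747 (minus) and H2-M3 at 37270220 to 37274484 (plus) follow.

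The classes differed in how much class I RNA they held, and the order was not the same for each gene or genotype. Levels are UMIs per 10000 UMIs of a cell, averaged first over cells within class and library and then over the libraries with at least 20 cells (SD, n = 4, and n = 3 for wild-type dendritic-like and NK-like cells). B2m in deleted hosts was highest in neutrophil-like cells at 74.9 ± 13.1, followed by monocyte/macrophage-like (65.007 ± 26.5), T-like (45.5 ± 7.20), dendritic-like (40.6 ± 10.02), NK-like (36.2 ± 3.55), malignant-like (34.9 ± 8.54) and fibroblast-like cells (33.3 ± 7.67). In wild-type hosts monocyte/macrophage-like cells came first at 55.05 ± 21.5, then neutrophil-like (40.9 ± 5.72), dendritic-like (39.8 ± 5.69), T-like (39.5 ± 3.38), NK-like (32.5 ± 1.11), malignant-like (29.3 ± 7.70) and fibroblast-like cells (28.5 ± 5.94). Neighbours in each order overlapped, except T-like and NK-like cells of wild-type hosts.

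H2-K1 in deleted hosts ran from 60.9 ± 45.1 in monocyte/macrophage-like cells through 47.4 ± 8.73 in T-like, 47.1 ± 12.1 in neutrophil-like, 35.9 ± 5.73 in NK-like, 33.2 ± 13.4 in malignant-like and 26.6 ± 8.50 in fibroblast-like cells to 24.8 ± 5.70 in dendritic-like cells. In wild-type hosts it was highest in T-like cells at 34.1 ± 6.20 and lowest in neutrophil-like cells at 15.7 ± 1.85. NK-like (32.3 ± 3.86), monocyte/macrophage-like (30.8 ± 16.4), dendritic-like (26.9 ± 6.14), malignant-like (25.5 ± 3.88) and fibroblast-like cells (19.1 ± 4.15) lay between. H2-D1 had its highest mean in neutrophil-like cells in both genotypes, 32.7 ± 2.05 in deleted and 24.9 ± 3.71 in wild-type hosts, and its lowest in fibroblast-like cells. For both classical genes, neighbours in the order overlapped.

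The Qa-2 genes H2-Q6 and H2-Q7, summed, stood highest in the lymphocyte classes, at 20.004 ± 5.79 in T-like and 15.9 ± 6.64 in NK-like cells of deleted hosts, against 14.2 ± 2.48 in T-like and 16.1 ± 2.65 in NK-like cells of wild-type hosts. Monocyte/macrophage-like and fibroblast-like cells stood between 4.13 and 5.06 in either genotype. Neutrophil-like cells stood at 14.4 ± 4.69 in deleted hosts, among the lymphocyte values, and at 2.47 ± 0.779 in wild-type hosts, the lowest mean of the 7 classes there. H2-T22 had its highest mean in neutrophil-like cells (3.74) of deleted and malignant-like cells (3.63) of wild-type hosts, H2-T23 in neutrophil-like (4.08) and dendritic-like cells (4.41), and H2-Q4 in T-like (3.35) and NK-like cells (2.29). H2-M3 had it in monocyte/macrophage-like cells of deleted (0.903) and malignant-like cells of wild-type hosts (0.866). Neighbours in these orders overlapped.

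**Figure D1:**
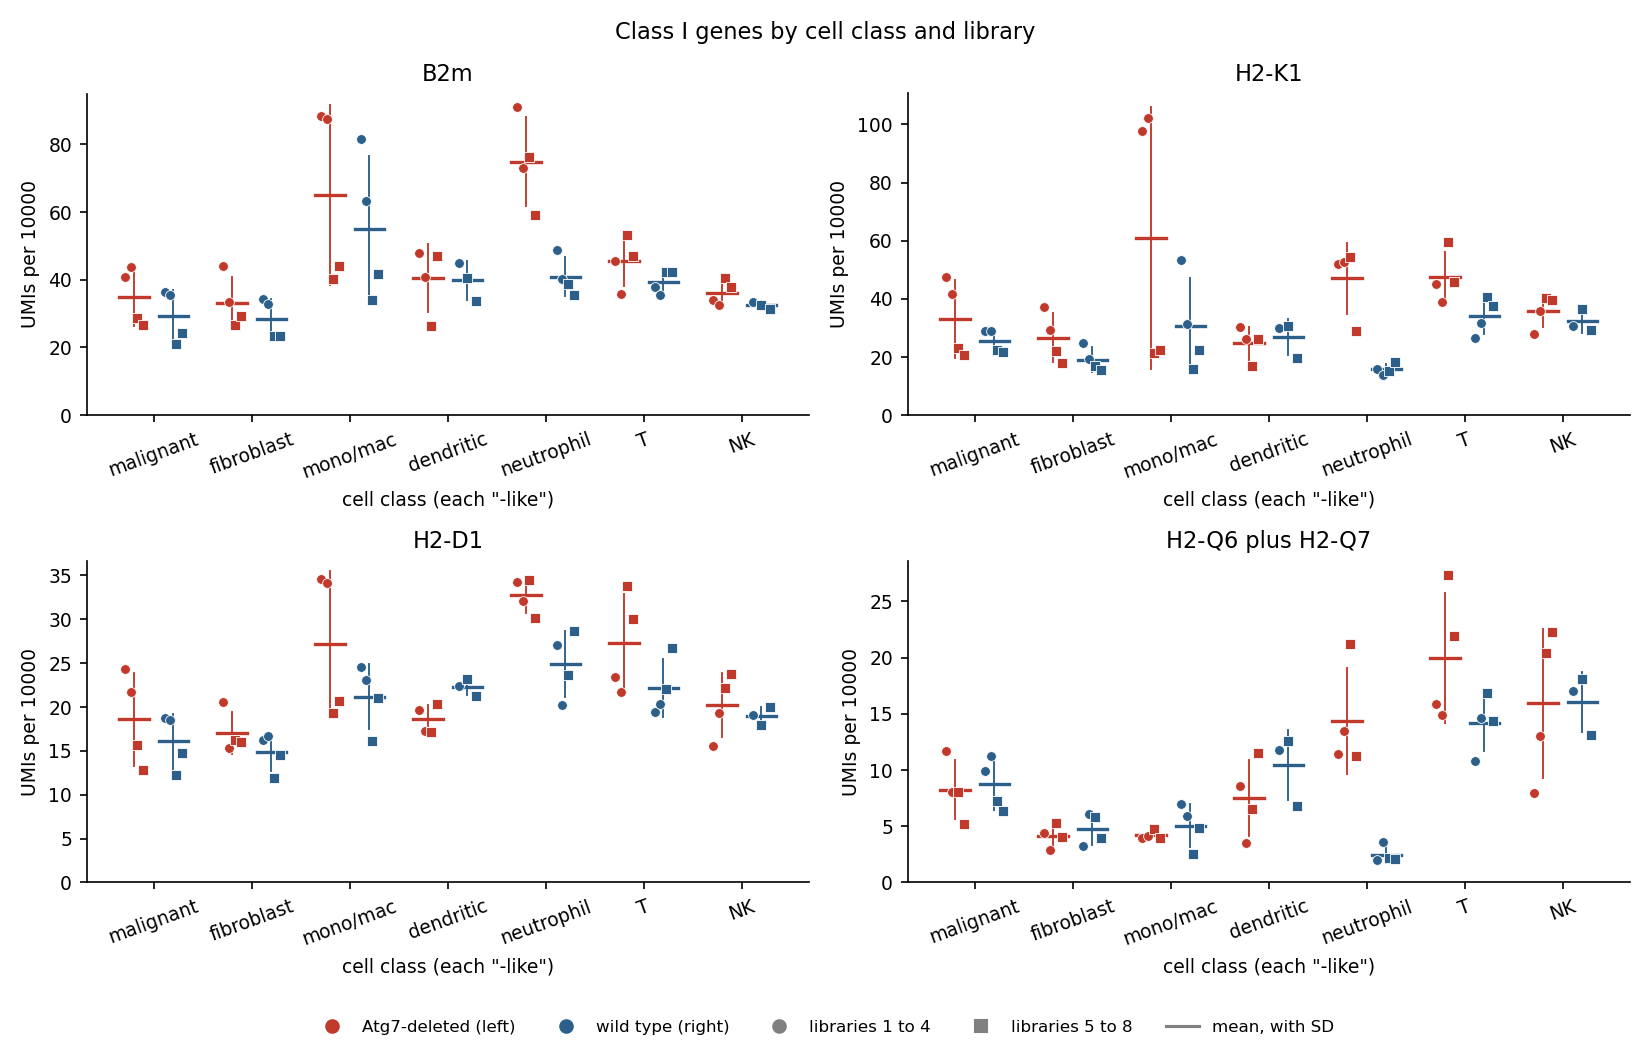
Levels of B2m, H2-K1, H2-D1 and summed H2-Q6 and H2-Q7 (y axis, UMIs per 10000) in each cell class (x axis), 1 point per library with at least 20 cells, Atg7-deleted hosts left in red and wild-type hosts right in blue, circles for libraries 1 to 4, squares for libraries 5 to 8, and lines for the mean and SD. In neutrophil-like cells all 4 deleted libraries lie above all 4 wild-type libraries in each panel, while in monocyte/macrophage-like cells the barcode sets lie farther apart than the genotypes for B2m and H2-K1.

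In neutrophil-like cells of Atg7-deleted hosts 3 of the 8 members tested rose. They were H2-K1, H2-Q6 and H2-Q7, by 2.62 on the log2 scale for H2-Q6, 2.26 for H2-Q7 and 1.54 for H2-K1. H2-D1, the other classical gene, had a difference of 0.40 that did not pass the test. All 8 members tested had a positive difference, with a median of 1.33 against 0.14 over the 2272 genes tested in the class.

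H2-K1 stood at 52.1, 52.8, 54.6 and 29.0 UMIs per 10000 in deleted libraries 3, 4, 7 and 8, against 15.9, 13.8, 15.1 and 18.2 in wild-type libraries 1, 2, 5 and 6. Deleted library 8 was the lowest of its group, and the groups did not overlap. The means were 47.1 ± 12.1 in deleted and 15.7 ± 1.85 in wild-type hosts (SD, n = 4 each). On log2(level + 0.1) the difference was 1.54 (SE 0.29, limma with Benjamini-Hochberg adjustment over all genes of the class, adjusted p = 0.0345).

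H2-Q6 stood at 3.45, 3.75, 14.5 and 5.99 in the deleted libraries, against 0.445, 0.969, 1.02 and 1.19 in the wild-type libraries. H2-Q7 stood at 8.00, 9.74, 6.78 and 5.29 in deleted, against 1.53, 2.66, 1.18 and 0.884 in wild-type libraries. Neither gene's groups overlapped, and deleted library 7, with 39 cells, was highest for H2-Q6. The means were 6.91 ± 5.16 in deleted and 0.907 ± 0.322 in wild-type hosts for H2-Q6, and 7.45 ± 1.89 in deleted and 1.56 ± 0.778 in wild-type hosts for H2-Q7 (SD, n = 4 each). The log2 differences were 2.62 (SE 0.45) and 2.26 (SE 0.35), each with an adjusted p of 0.0287 by limma. Thus 3 of 8 members passed, where 0.484% of all genes tested in the class rose and 0.132% fell. The counts behind the lowest values were small, with 4 H2-Q6 and 15 H2-Q7 UMIs in wild-type library 1.

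The sum of H2-Q6 and H2-Q7 does not depend on how counted reads were divided between these near-identical genes. Reads that match both may still have been lost from it. The sum separated the libraries in the same way. It stood at 11.4, 13.5, 21.2 and 11.3 UMIs per 10000 in the deleted libraries, against 1.98, 3.63, 2.20 and 2.07 in the wild-type libraries. The lowest deleted library was above the highest wild-type library. The mean was 14.4 ± 4.69 in deleted and 2.47 ± 0.779 in wild-type hosts, a 5.81-fold ratio. A two-sided exact permutation test gave p = 0.0286, the smallest that 70 relabelings of 4 against 4 libraries allow, and 0.2 after adjustment over the 7 classes. Permuted within the barcode sets, the exact p was 0.0556, the smallest that 36 relabelings allow.

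B2m, the shared light chain, stood at 91.1, 72.9, 76.2 and 59.3 in deleted libraries, against 48.9, 40.4, 38.9 and 35.4 in wild-type libraries. The groups did not overlap, with means of 74.9 ± 13.1 in deleted and 40.9 ± 5.72 in wild-type hosts. Its difference of 0.86 (SE 0.27) missed the threshold with limma's adjusted p = 0.168. H2-D1 stood at 34.3, 32.1, 34.4 and 30.1 in deleted, against 27.0, 20.3, 23.7 and 28.6 in wild-type libraries. Here too the groups did not overlap, and the difference of 0.40 (SE 0.25) had an adjusted p of 0.454 by limma.

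H2-T22 stood at 5.25, 3.75, 2.65 and 3.32 in deleted, against 1.12, 1.11, 0.912 and 2.30 in wild-type libraries, with no overlap. Its difference of 1.44 (SE 0.34) had an adjusted p of 0.0867 by limma, and 0.0394 in a fit with the barcode set as a term, under which 4 members passed where 1.23% of all genes rose and 0.704% fell. H2-Q4 (1.26, 1.10, 6.08 and 4.00 in deleted, 0.369, 0.431, 1.59 and 3.25 in wild-type libraries) and H2-T23 (3.56, 2.61, 5.11 and 5.06 in deleted, 2.59, 1.23, 3.76 and 2.99 in wild-type libraries) overlapped. Their differences were 1.22 and 0.66, with adjusted p = 0.389 and 0.392 by limma. In all, 6 of the 8 members lay higher in every deleted library than in any wild-type library, where 7.66% of all genes did.

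H2-M3 was seen in too few neutrophil-like cells to be tested, with 0.283 to 0.625 UMIs per 10000 in deleted and 0.189 to 0.317 in wild-type libraries. The 8 members tested also had a UMI in at least 5% of the cells of most wild-type libraries, so none entered the test through the deleted hosts alone.

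**Figure D2:**
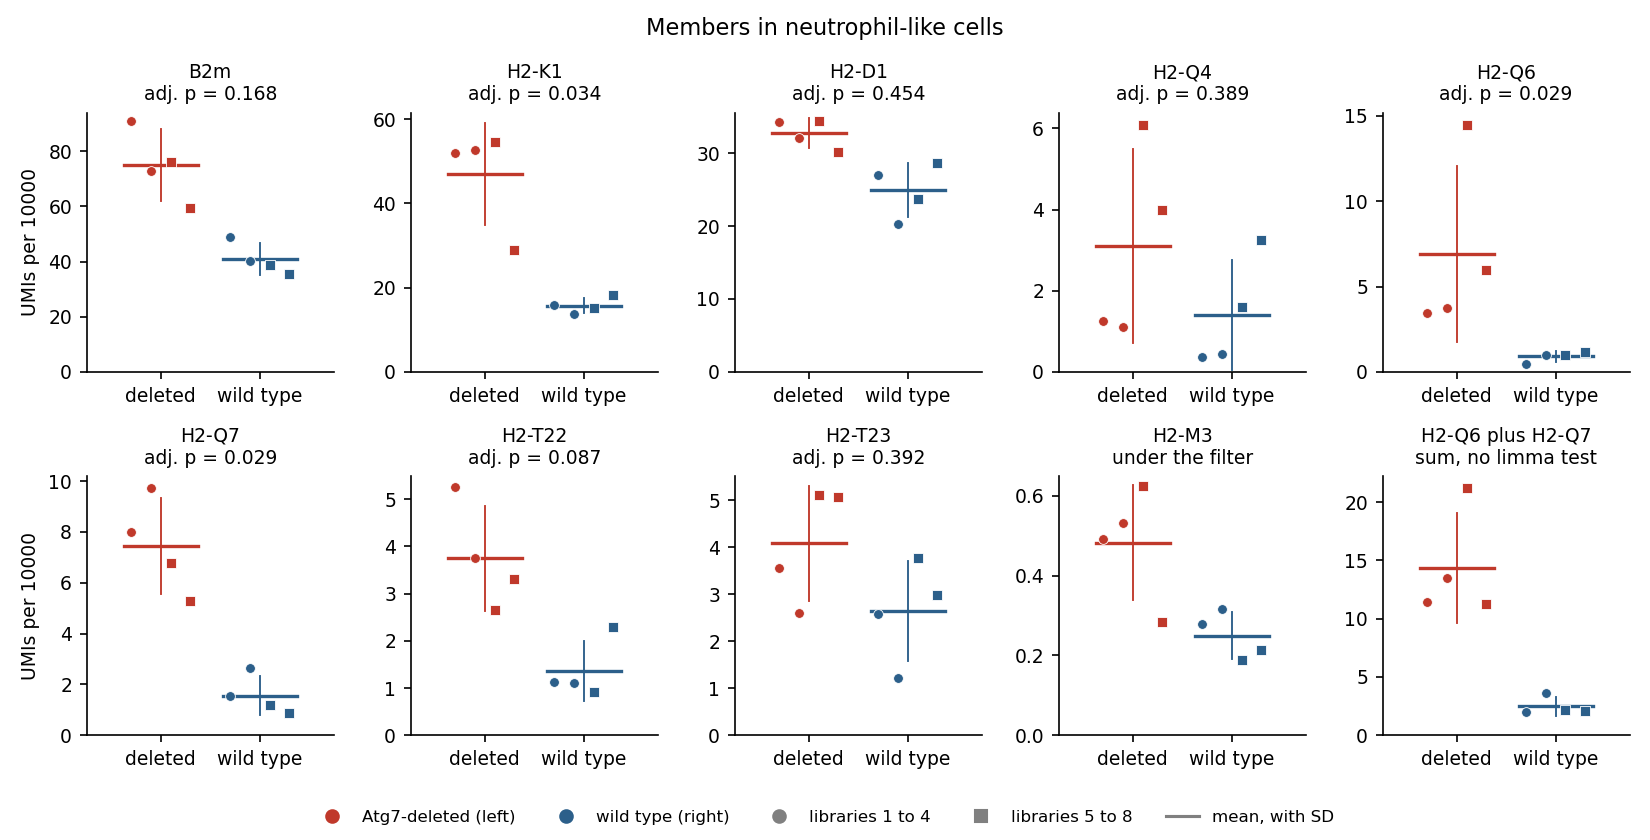
The 9 genes and the sum of H2-Q6 and H2-Q7 in neutrophil-like cells (y axis, UMIs per 10000, own scale in each panel), 1 point per library, Atg7-deleted hosts left in red and wild-type hosts right in blue, circles for libraries 1 to 4, squares for libraries 5 to 8, lines for the mean and SD, and limma's adjusted p above each panel. H2-K1 at 29.0 to 54.6 in deleted against 13.8 to 18.2 in wild-type libraries, H2-Q6 and H2-Q7 pass the test.

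Each barcode set showed the same direction for all 9 genes. The log2 ratio of deleted over wild type was 1.82 in libraries 1 to 4 and 1.33 in libraries 5 to 8 for H2-K1, and 2.15 and 2.93 for the sum of H2-Q6 and H2-Q7. It was 0.88 and 0.87 for B2m and 0.49 and 0.30 for H2-D1. For H2-T22 it was 2.02 and 0.90. The ratio of H2-K1 to H2-D1 within a library, which no scaling of that library can move, was 1.52, 1.65, 1.58 and 0.962 in deleted libraries 3, 4, 7 and 8, against 0.586, 0.681, 0.638 and 0.636 in wild-type libraries 1, 2, 5 and 6. That ratio was higher in every deleted library than in any wild-type library.

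The result rested on 138, 161, 39 and 1408 cells in deleted libraries 3, 4, 7 and 8, against 65, 245, 349 and 343 cells in wild-type libraries 1, 2, 5 and 6. Median UMIs per cell were 1154.5, 1877, 814 and 1242.5 in the deleted libraries, against 1253, 1090, 670 and 998 in the wild-type libraries. Neither cell number nor depth separated the genotypes. With each cell thinned to 500 UMIs, H2-K1 was seen in 84.8, 85.7, 87.2 and 68.9% of cells in deleted libraries, against 49.2, 39.6, 45.6 and 56.9% in wild-type libraries. The means were 81.6 ± 8.57% in deleted and 47.8 ± 7.22% in wild-type hosts. Without thinning the shares were 87.2 to 97.5% in deleted and 60.2 to 86.2% in wild-type libraries.

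H2-Q6 or H2-Q7 was seen in 33.3, 39.1, 59.0 and 35.7% of thinned cells in deleted libraries, against 7.69, 13.1, 8.31 and 8.45% in wild-type libraries. B2m was seen in 90.3 to 100% in deleted and 77.3 to 87.7% in wild-type libraries, and H2-D1 in 69.2 to 78.3% in deleted and 60 to 65.6% in wild-type libraries. In none of these 4 shares did the groups overlap, and each gave an exact permutation p of 0.0286, the smallest possible. The shares follow the levels of the same genes in the same libraries and are no separate support. Without thinning, the share with H2-Q6 or H2-Q7 was 55.1 to 71.8% in deleted and 10.9 to 31.0% in wild-type libraries. These shares were chosen after the levels had been seen.

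**Figure D3:**
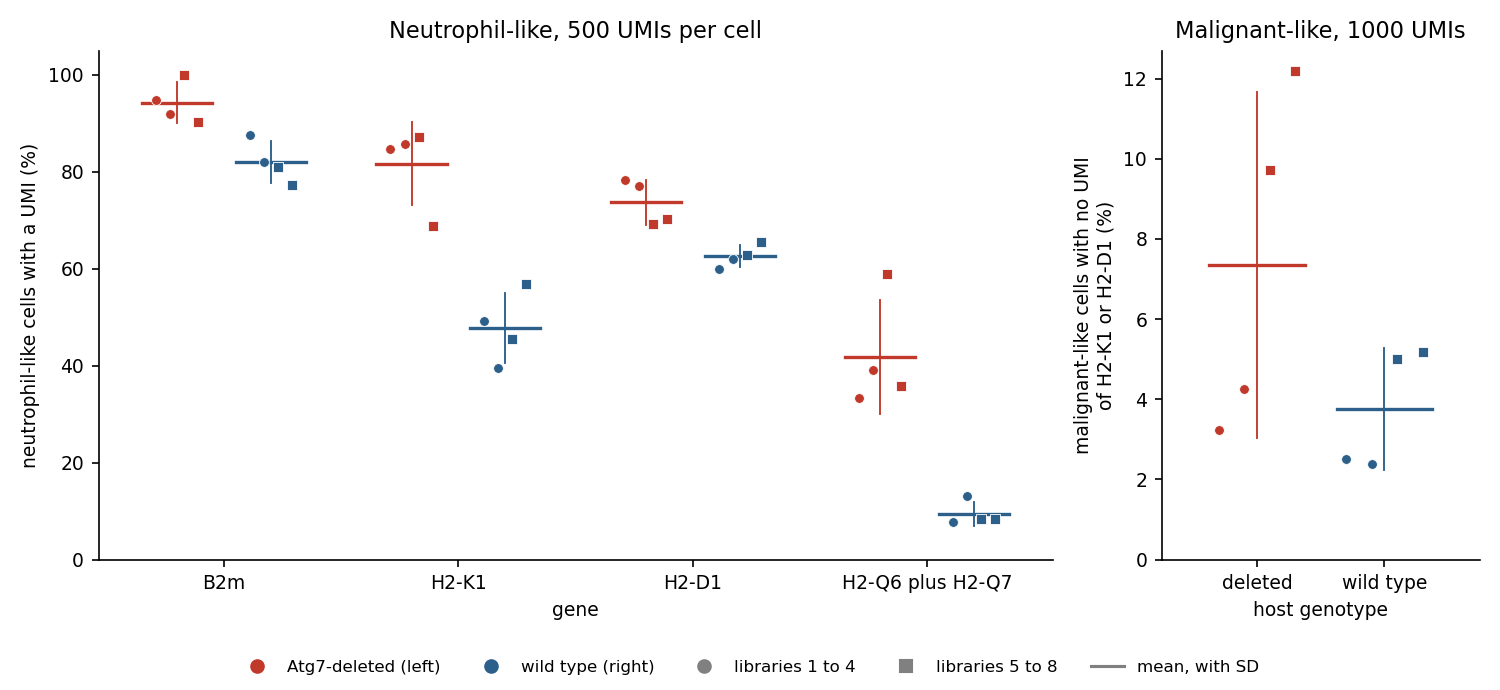
Left, share of neutrophil-like cells with a UMI of each gene (y axis, percent) after thinning every cell to 500 UMIs; right, share of malignant-like cells with no UMI of H2-K1 or H2-D1 (y axis, percent) after thinning to 1000 UMIs. Points are libraries, Atg7-deleted hosts left in red and wild-type hosts right in blue, circles for libraries 1 to 4 and squares for libraries 5 to 8, with mean and SD; the neutrophil-like groups do not overlap, and the malignant-like groups do.

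RNA from outside the cell can add UMIs in droplet data, and no class lacks class I to serve as a blank. Over all cells of a library, the sum of H2-Q6 and H2-Q7 stood at 4.82, 5.41, 8.79 and 7.52 per 10000 in deleted libraries 3, 4, 7 and 8, against 9.43, 10.15, 7.58 and 6.40 in wild-type libraries 1, 2, 5 and 6. The neutrophil-like level was above the level of the whole library in every deleted library and below it in every wild-type library. For H2-K1 the whole-library level was 45.8, 53.3, 25.4 and 24.3 in deleted, against 29.1, 28.6, 22.5 and 21.3 in wild-type libraries, so these levels overlapped, with the deleted libraries higher within each barcode set. The makeup of RNA outside the cells was not measured, and its part in the H2-Q6, H2-Q7 and H2-K1 results was not tested.

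The neutrophil-like class held all 7 of its markers in every library, with a summed level of 241 to 521 in deleted and 459 to 731 in wild-type libraries. Monocyte/macrophage markers summed to 3.43 to 21.5 in deleted libraries (3 to 11 of 11 above 0) and 5.37 to 12.4 in wild-type libraries (8 to 11 of 11). Fibroblast markers summed to 0.242 to 26.8 in deleted and 0.218 to 1.65 in wild-type libraries. The lowest sum, 3.43 with 3 of 11 above 0, was in deleted library 7, where C1qa, C1qb, C1qc, Ms4a7 and Apoe were at 0 in its 39 cells. Restricted to cells without a UMI of 7 macrophage genes, limma's adjusted p was 0.0291 for H2-K1 and 0.0208 for H2-Q6 and H2-Q7. Restricted to cells of 500 to 1500 UMIs, limma's adjusted p was 0.0289 for H2-K1 and H2-Q6 and 0.0258 for H2-Q7. Both restrictions were chosen after seeing the data. The share of all genes past the threshold in these fits is not given here.

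Clustered more finely, the class split into cells led by S100a8 and Retnlg and cells led by Ccl3. The Ccl3-led cells numbered 90, 141, 37 and 1109 in deleted libraries 3, 4, 7 and 8, against 34, 158, 204 and 266 in wild-type libraries 1, 2, 5 and 6. The S100a8-led cells numbered 48, 20, 2 and 298 in deleted, against 31, 87, 141 and 76 in wild-type libraries. The part of this makeup in the class levels was not tested. In the S100a8-led cells H2-K1 stood at 38.6, 30.4 and 20.2 in deleted libraries 3, 4 and 8, against 14.9, 12.6, 14.96 and 16.3 in wild-type libraries 1, 2, 5 and 6, and deleted library 7 held only 2 such cells. In the Ccl3-led cells it stood at 59.2, 55.9, 56.4 and 31.3 in deleted libraries 3, 4, 7 and 8, against 16.7, 14.5, 15.4 and 18.8 in the wild-type libraries. The groups did not overlap in either kind of cell. Summed H2-Q6 and H2-Q7 stood at 5.27, 2.78 and 4.06 in deleted, against 0.718 to 2.00 in wild-type libraries in the S100a8-led cells, and at 13.2 to 22.4 in deleted and 2.01 to 4.53 in wild-type libraries in the Ccl3-led cells.

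The calls depended on the number of libraries and on the scaling. Leaving out 1 library at a time left 0 to 2 members past the threshold (0 without wild-type library 1, 5 or 6 or deleted library 3 or 4), and scaling by median ratios left H2-Q7 alone, while none of the 8 members changed direction under the alternatives run. With that scaling the median difference was -0.17 over all genes of the class and 0.97 over the members, and 0.044% of genes rose and 0.044% fell.

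The genotype difference of neutrophil-like cells was set against that of monocyte/macrophage-like cells, the other myeloid class with many cells, after the neutrophil-like result was seen. For H2-Q6 the neutrophil-like difference was larger by 2.86 (SE 0.34, limma on within-library differences, adjusted p = 0.00443) and for H2-Q7 by 2.45 (SE 0.39, adjusted p = 0.0269). These were 2 of 8 members, where 0.326% of 2145 genes passed in that direction and 0.0466% in the other. For H2-K1 the value was 0.79 (SE 0.55, adjusted p = 0.477 by limma) and for B2m 0.64 (adjusted p = 0.373 by limma), so a difference between these classes was not shown for them. The count fell to 0 without wild-type library 6, with the mean of log values or with only cells of at least 1000 UMIs, and to 1 without wild-type library 1 or 2 or deleted library 3, 4 or 8.

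Monocyte/macrophage-like cells showed no member past the threshold (limma, 0 of 9, adjusted p from 0.587 to 0.970, none at an unadjusted p under 0.05). Of the 5631 genes tested 0.0178% rose and 0% fell. H2-K1 stood at 97.7, 102, 21.5 and 22.4 in deleted libraries 3, 4, 7 and 8, against 53.4, 31.4, 16.0 and 22.3 in wild-type libraries 1, 2, 5 and 6. Libraries 3 and 4 were far above the rest, and the groups overlapped. The log2 ratio was 1.24 in libraries 1 to 4 and 0.20 in libraries 5 to 8, and the fitted difference was 0.75 (SE 0.60, adjusted p = 0.758 by limma). Different clusters held the class in different libraries. A cluster led by Chil3 and Slc7a2 had 1006 of its 1050 cells in deleted library 3, a Cbr2-led one 984 of 1192 there, and an Mmp12-led one 1221 of 1420 in deleted library 4. A cluster led by Mmp13 and Inhba had 432 and 630 of its 1188 cells in wild-type libraries 1 and 2.

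The cluster led by Lgmn and Fabp5 held at least 60 cells in every library. In it H2-K1 stood at 45.5, 89.01, 21.5 and 22.6 in deleted, against 67.1, 29.9, 15.96 and 21.6 in wild-type libraries, with overlap. Its summed H2-Q6 and H2-Q7 stood at 2.45, 4.50, 5.32 and 2.94 in deleted, against 8.03, 4.36, 2.15 and 4.53 in wild-type libraries, also with overlap. The part of the cluster makeup in the comparison of neutrophil-like with monocyte/macrophage-like cells was not tested.

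B2m in these cells stood at 88.4, 87.4, 40.2 and 44.1 in deleted, against 81.5, 63.2, 33.9 and 41.7 in wild-type libraries, and it followed the barcode set more than the genotype. H2-Q4 had a log2 ratio of 1.42 in libraries 1 to 4 and -0.04 in libraries 5 to 8. The Qa-2 genes summed averaged 4.20 ± 0.371 in deleted and 5.06 ± 1.89 in wild-type hosts (0.8294-fold, exact permutation p = 0.4). In deleted libraries 3 and 4, neutrophil-like cells held 11.4 and 13.5 of the summed genes and monocyte/macrophage-like cells of the same libraries 4.00 and 4.12.

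In T-like cells 8 of 9 members had positive differences, with a median of 0.29 against 0.11 over 6219 genes. None passed the threshold (limma, adjusted p from 0.382 to 0.905, none at an unadjusted p under 0.05), where 0.949% of genes rose and 0.434% fell. H2-Q4 stood at 1.33, 1.23, 6.49 and 4.34 in deleted libraries 3, 4, 7 and 8, against 0.421, 0.333, 3.27 and 3.30 in wild-type libraries 1, 2, 5 and 6. Libraries 5 to 8 were higher than libraries 1 to 4 in both genotypes, and within each set both deleted libraries were above both wild-type libraries. With the barcode set as a term H2-Q4 rose by 1.11 (SE 0.22, limma, adjusted p = 0.00486).

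H2-Q6 in T-like cells stood at 2.96, 3.85, 12.03 and 9.46 in deleted, against 2.12, 2.52, 6.50 and 4.38 in wild-type libraries, with the same split by set. With the barcode set as a term it rose by 0.76 (SE 0.20, limma, adjusted p = 0.0276), and 2 of 9 members then passed, where 3.91% of all genes rose and 1.72% fell. Without that term their adjusted p-values were 0.409 and 0.382. Summed H2-Q6 and H2-Q7 averaged 20.004 ± 5.79 in deleted and 14.2 ± 2.48 in wild-type hosts (1.41-fold, exact permutation p = 0.143, and 0.0556 within the sets, its smallest possible value). T-like H2-K1 averaged 47.4 ± 8.73 in deleted and 34.1 ± 6.20 in wild-type hosts, with overlap.

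The T-like class was made of different clusters in the genotypes. The cluster led by Cd8a held 26.9, 33.3, 13.9 and 23.1% of T-like cells in deleted libraries 3, 4, 7 and 8, against 83.0, 72.7, 70.4 and 76.1% in wild-type libraries 1, 2, 5 and 6. In that cluster H2-Q4 stood at 0.764, 0.762 and 3.36 in deleted libraries 3, 4 and 8, against 0.313, 0.314, 2.68 and 3.10 in wild-type libraries 1, 2, 5 and 6, and deleted library 7 had 15 such cells. Restricted to those with UMIs of Cd8a or Cd8b1 and none of Cd4, the fitted difference was 0.48 for H2-Q4 and 0.56 for H2-Q6, with adjusted p = 0.886 and 0.780 by limma, and restricted to those with a UMI of Cd4 alone 0.35 and 0.63, with adjusted p = 0.876 and 0.686. In these subsets 2 and 1 of 9 members had the other sign. The subset fits had no barcode set term, so they are not set against the calls made with it. Without that term the whole class gave 1.11 for H2-Q4 and 0.76 for H2-Q6, with adjusted p = 0.409 and 0.382 by limma.

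Dendritic-like cells pointed the other way. None of the 9 members had a positive difference, with a median of -0.26 against 0.09 over 7512 genes, and none passed the threshold (limma, adjusted p from 0.227 to 0.999, 1 at an unadjusted p under 0.05). Of all genes 0.0799% rose and 0.0532% fell. H2-T22 stood at 1.30, 1.32, 0.575 and 0.955 in deleted libraries 3, 4, 7 and 8, against 2.48, 1.72 and 3.10 in wild-type libraries 2, 5 and 6. These groups did not overlap, and the difference was -1.18 (SE 0.34, adjusted p = 0.227 by limma).

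H2-D1 in dendritic-like cells stood at 19.6, 17.3, 17.1 and 20.4 in deleted, against 22.4, 23.2 and 21.3 in wild-type libraries, the only other member without overlap, with a difference of -0.26. Thus 2 of 9 members were below in every deleted library, where 3.35% of all genes were. Dendritic-like and NK-like values do not include wild-type library 1, where these classes had 16 and 9 cells. With the barcode set as a term, 2 of the 9 differences were positive.

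NK-like cells were near level. The median difference was 0.01 against 0.03 over 7188 genes, 6 of 9 were positive, and none passed (limma, adjusted p from 0.876 to 0.998, none at an unadjusted p under 0.05), where 0.0139% of genes rose and 0.751% fell. H2-K1 averaged 35.9 ± 5.73 in deleted (n = 4) and 32.3 ± 3.86 in wild-type hosts (n = 3). Summed H2-Q6 and H2-Q7 averaged 15.9 ± 6.64 in deleted and 16.1 ± 2.65 in wild-type hosts (0.992-fold, exact permutation p = 0.971).

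Malignant-like cells were named from markers of the injected MB49 line. They had positive differences in 7 of 9 members, with a median of 0.23 against -0.09 over 9343 genes. None passed (limma, adjusted p from 0.520 to 0.983, none at an unadjusted p under 0.05), where 0.0856% of genes rose and 0.289% fell. H2-K1 stood at 47.4, 41.8, 23 and 20.5 in deleted libraries 3, 4, 7 and 8, against 28.8, 28.9, 22.6 and 21.7 in wild-type libraries 1, 2, 5 and 6. Deleted libraries 3 and 4 were highest, and libraries 7 and 8 lay among the wild-type values. The log2 ratio was 0.63 in libraries 1 to 4 and -0.02 in libraries 5 to 8.

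H2-M3 had the largest difference of the class, -0.61 (SE 0.32, adjusted p = 0.520 by limma), with 0.549 ± 0.238 in deleted and 0.866 ± 0.265 in wild-type hosts. The sum of the Qa-2 genes averaged 8.26 ± 2.65 in deleted and 8.72 ± 2.29 in wild-type hosts (0.947-fold, exact permutation p = 0.8286). These cells numbered 38, 140, 107 and 106 in deleted libraries, against 1150, 1322, 4149 and 3220 in wild-type libraries. Their malignant markers summed to 25.1 to 29.8 in deleted and 42.8 to 48.7 in wild-type libraries, and monocyte/macrophage markers to 0.211 to 11.003 in deleted and 0.311 to 1.14 in wild-type libraries. Fibroblast markers summed to 0.531 to 17.8 in deleted and 0.0935 to 1.16 in wild-type libraries, mast cell markers to at most 12.2 in deleted and 0.000518 in wild-type libraries, and plasma cell markers to 0.504 to 13.9 in deleted and 0.575 to 0.888 in wild-type libraries. The part of any of these in the member levels was not tested.

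Fibroblast-like cells had 5 of 9 positive differences, a median of 0.06 against 0.07 over 9240 genes, and none past the threshold (limma, adjusted p from 0.621 to 0.975, none at an unadjusted p under 0.05). Of all genes 0.0758% rose and 0.0108% fell. H2-K1 averaged 26.6 ± 8.50 in deleted and 19.1 ± 4.15 in wild-type hosts, with overlap. Their Qa-2 genes summed averaged 4.13 ± 1.00 in deleted and 4.76 ± 1.39 in wild-type hosts (exact permutation p = 0.514).

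For malignant-like, fibroblast-like and T-like cells the genotype difference was likewise set against that of monocyte/macrophage-like cells. In none of the 3 pairs did any of 9 members pass (limma, adjusted p). At an unadjusted p under 0.05 there was 1 in the malignant-like pair, H2-M3 at -0.77, 1 in the T-like pair, H2-Q6 at 1.00, and 0 in the fibroblast-like pair. The genes higher and lower made up 0.0957% and 0.0383% of those tested in the malignant-like pair, 0.0187% and 0.0187% in the fibroblast-like pair and 0.406% and 0.171% in the T-like pair.

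**Figure D4:**
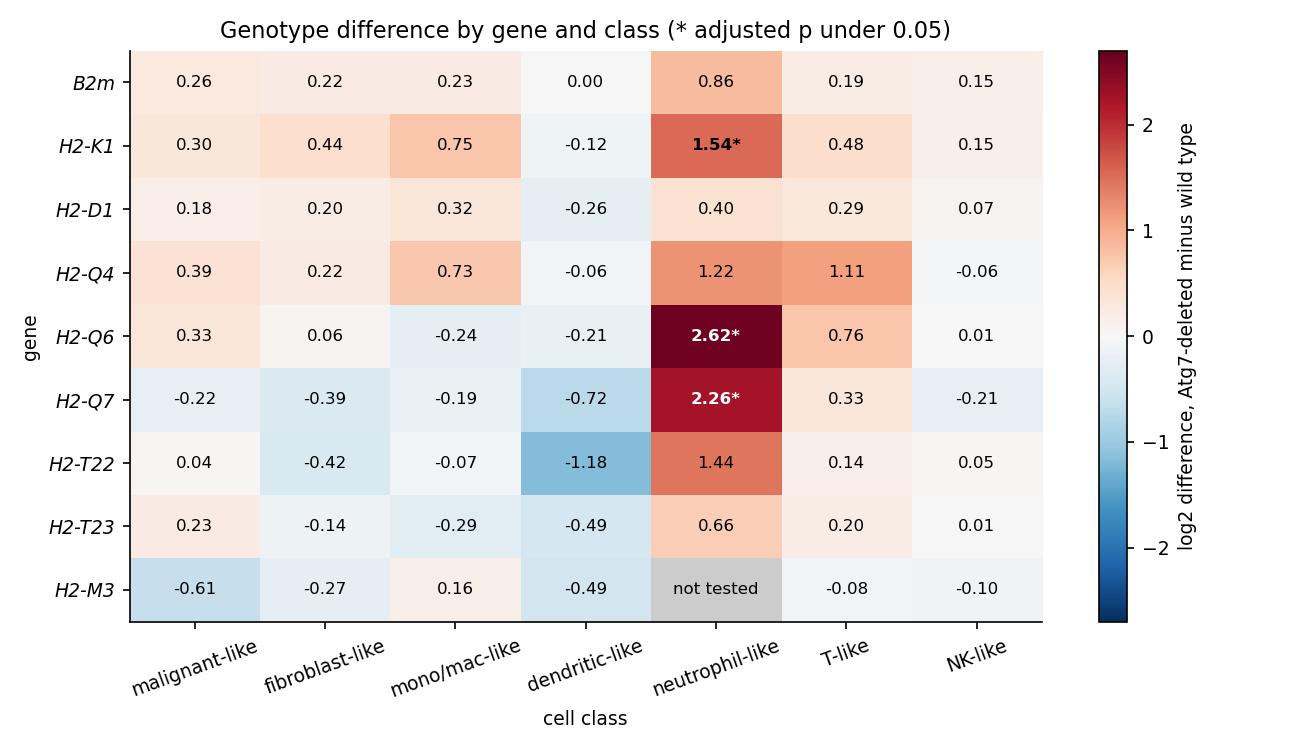
Log2 difference in level, Atg7-deleted minus wild type, for each of the 9 genes (y axis) in each cell class (x axis), from limma on log2(UMIs per 10000 + 0.1), red where the deleted hosts were higher and blue where they were lower, with a star at an adjusted p under 0.05. The stars are at H2-K1, H2-Q6 and H2-Q7 in neutrophil-like cells, and no dendritic-like value is above 0.00.

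H2-Q6 and H2-Q7 share much of their sequence, and reads may be divided between them. Over the first 500 bases of their transcripts, 461 of 487 aligned bases were identical (94.7%). Of the 91-base windows in the first 500 bases of H2-Q7 transcripts, 28.6% also occur in another gene, 19.8% in H2-Q6, while 2.97% of the H2-Q6 windows do. H2-T22 shares 8.41% of its windows, with H2-T10, H2-D1 5.24% and H2-K1 1.83%, and B2m, H2-Q4, H2-T23 and H2-M3 share none. The counting of reads that match several genes is not given in the sources used here.

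Within the summed UMIs, the H2-Q6 share followed the barcode set. It was 11.1 to 35.3% (median 20.9%, 26 values) over the classes and libraries 1 to 4, and 29.0 to 64.3% (median 45.7%, 28 values) over libraries 5 to 8, and the sets did not overlap within any class. In neutrophil-like cells it was 21.1 to 32.1% in libraries 1 to 4 and 50 to 64.3% in libraries 5 to 8. Levels of single genes from the 2 sets are therefore not on the same footing for H2-Q6 and H2-Q7. Other members differed by set as well: H2-Q4 was higher in every library of 5 to 8 than in any of 1 to 4 in 6 of 7 classes, by up to 5.40-fold, H2-T23 in 5, and H2-Q6 in 4. B2m was lower in libraries 5 to 8 in 3 classes, H2-K1, H2-D1 and H2-Q7 in 2, H2-T22 in 1 and H2-M3 in none.

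**Figure D5:**
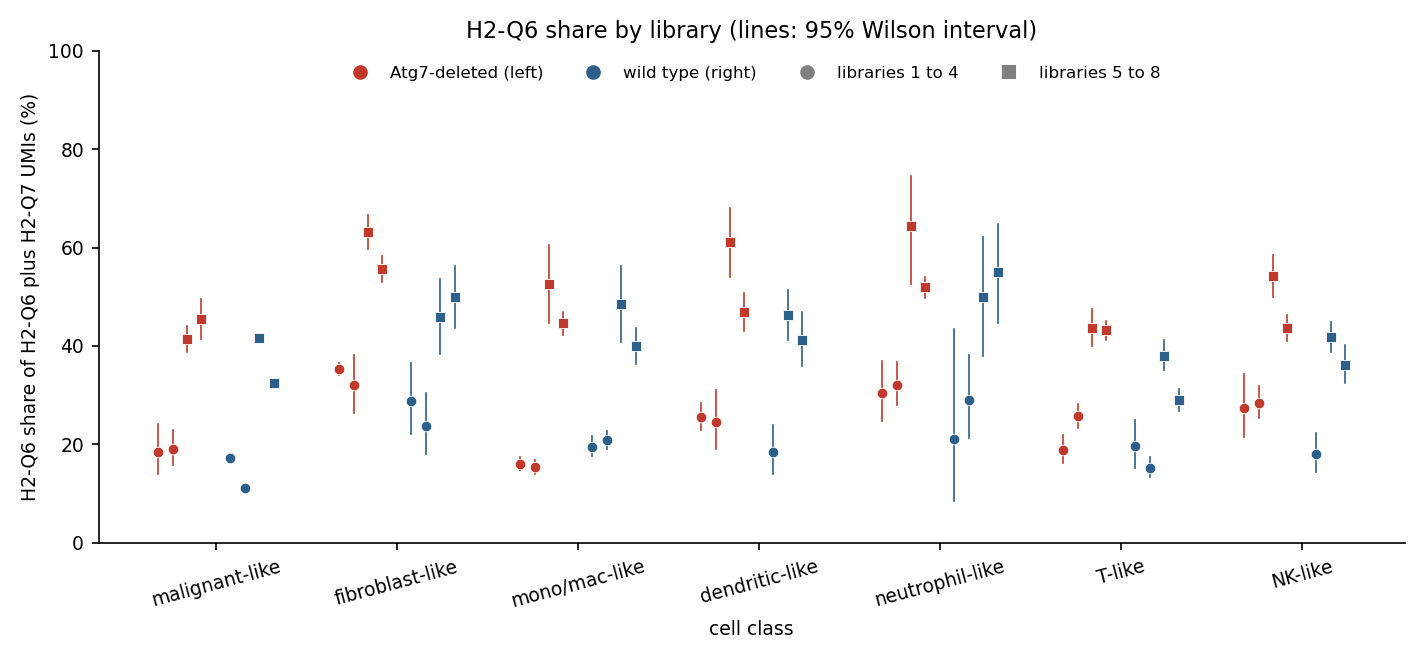
H2-Q6 as a percent of H2-Q6 plus H2-Q7 UMIs (y axis) in each cell class (x axis), 1 point per library with at least 20 cells, Atg7-deleted hosts left in red and wild-type hosts right in blue, circles for libraries 1 to 4 and squares for libraries 5 to 8, with 95% Wilson intervals that cover counting error only. In every class the squares lie above the circles, in both genotypes.

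Cells without classical class I RNA were counted among malignant-like cells, since loss of H2-K1 and H2-D1 is a known way for tumor cells to avoid CD8 T cells. At 1000 UMIs per cell, 3.23, 4.26, 9.71 and 12.2% of cells had no UMI of either gene in deleted libraries 3, 4, 7 and 8, against 2.50, 2.38, 5 and 5.17% in wild-type libraries 1, 2, 5 and 6. The groups overlapped. Within each barcode set both deleted libraries were higher, but the value of deleted library 3 is 1 of 31 cells. It was 0% with the members among the variable genes, without cells of over 4500 genes and without cells with immune UMIs, below wild-type libraries 1 and 2. The means were 7.35 ± 4.31% in deleted and 3.76 ± 1.53% in wild-type hosts (exact permutation p = 0.257, and 0.0556 within the sets, the smallest possible). Only 31, 94, 103 and 82 cells entered in the deleted libraries, against 1121 to 4062 in the wild-type libraries.

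The share moved with depth. At 2000 UMIs per cell it was 0.703% in deleted and 0.541% in wild-type hosts (exact permutation p = 0.686), and without thinning 5.68% in deleted and 0.614% in wild-type hosts (exact permutation p = 0.0286). Median UMIs of malignant-like cells were 2285.5, 2169, 15289 and 4650 in deleted libraries, against 16359.5, 14713.5, 9634 and 16647 in wild-type libraries. Without cells that held a UMI of Ptprc, Tyrobp or Cd52 the thinned share was 6.76% in deleted and 3.66% in wild-type hosts (exact permutation p = 0.457).

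Genes that work with class I, and genes related to them, were followed in fixed lists. Counts of list genes at an unadjusted p under 0.05 are given without the share of all genes at that level. They are therefore not read as results about a list. Peptide loading comprises the TAP transporter, tapasin, the immunoproteasome subunits and the chaperones that fill class I with peptide. Of 11 to 15 such genes tested per class, none passed in any class (limma, 12 of 101 tests at an unadjusted p under 0.05). In neutrophil-like cells 9 of 11 had positive differences, with a median of 0.72 against 0.14 over all genes, and 1 lay higher in every deleted library, a share near the 7.66% of all genes. That gene was Tap2, a subunit of the peptide transporter, chosen after its values were seen, with 3.89 ± 0.916 in deleted and 1.73 ± 0.778 in wild-type hosts (difference 1.21, SE 0.37, adjusted p = 0.166 by limma).

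The interferon gamma list holds GTPases and other genes known to respond to that cytokine. In neutrophil-like cells 1 of 12 rose, Gbp4, a guanylate-binding protein, with 2.45 ± 0.981 in deleted and 0.497 ± 0.206 in wild-type hosts (log2 difference 2.08, SE 0.36, limma, adjusted p = 0.0287). In that class 11 of 12 differences were positive, with a median of 0.93, and 6 genes lay higher in every deleted library, where 7.66% of all genes did and 0.484% rose. In malignant-like cells 2 of 20 rose, where 0.0856% of all genes did. Iigp1, an immunity-related GTPase, averaged 1.36 in deleted and 0.383 in wild-type hosts (1.62, adjusted p = 0.0391 by limma), and Cd274, which encodes the checkpoint ligand PD-L1, 1.37 in deleted and 0.462 in wild-type hosts (1.41, adjusted p = 0.0442 by limma). Cd274 stood at 30.7 in neutrophil-like and 4.36 in monocyte/macrophage-like cells of deleted hosts, and Iigp1 at 2.88 in fibroblast-like cells of deleted hosts. Markers of macrophages and fibroblasts in these malignant-like cells are given above, and their part in the 2 calls was not tested. Igtp, another such GTPase, was the 1 of 14 that rose in T-like cells (1.17, adjusted p = 0.0303 by limma), where 0.949% of all genes rose. The other 4 classes had none past the threshold, with medians of 0.03 in fibroblast-like, -0.39 in monocyte/macrophage-like, -0.58 in dendritic-like and 0.09 in NK-like cells.

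The type I interferon list, of 8 to 19 genes per class, differed in direction between classes. In neutrophil-like cells 5 of 16 differences were positive, with a median of -0.26, and in dendritic-like cells none of 17, with a median of -1.04, while in malignant-like cells 18 of 19 were, with a median of 0.57. None of these passed the threshold. At an unadjusted p under 0.05 there were 3 in neutrophil-like, 13 in dendritic-like and 7 in malignant-like cells, without the share of all genes to set them against. Monocyte/macrophage-like cells also had 0 of 16 positive, with a median of -0.45 and 7 at an unadjusted p under 0.05. Positive differences numbered 2 of 8 in T-like, 2 of 11 in NK-like and 5 of 18 in fibroblast-like cells. Bst2, which tethers virus particles to the cell surface, fell in T-like cells by 1.34 (1.51 in deleted and 4.08 in wild-type hosts, limma, adjusted p = 0.0203) and in NK-like cells by 1.55 (1.56 in deleted and 4.6003 in wild-type hosts, limma, adjusted p = 0.0245).

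Malignant-like cells held Bst2 at 22.7 in deleted and 18.1 in wild-type hosts. The malignant markers in NK-like cells summed to 0.172 to 1.07 in deleted and 4.54 to 8.59 in wild-type libraries, and in T-like cells to 0.0790 to 0.641 in deleted and 0.604 to 3.22 in wild-type libraries. Their part in the Bst2 result was not tested.

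Transcriptional regulators of class I, among them Nlrc5, Irf1 and the NF-kB subunits, had 17 to 24 genes tested per class and none past the threshold (limma, 13 of 152 tests at an unadjusted p under 0.05). In neutrophil-like cells Nlrc5, the activator of class I transcription, averaged 1.73 in deleted and 1.02 in wild-type hosts (0.73, adjusted p = 0.338 by limma). Rela, an NF-kB subunit, was the 1 of 17 higher in every deleted library, where 7.66% of all genes were, and was chosen after its values were seen, with 1.77 ± 0.472 in deleted and 0.618 ± 0.382 in wild-type hosts (1.52, adjusted p = 0.146 by limma). Other class I and class I-like genes, 0 to 5 per class, and the MHC class II presentation genes, 5 to 10 per class, also had none past the threshold (limma, 3 of 18 and 11 of 50 tests at an unadjusted p under 0.05). The class II genes in neutrophil-like cells had a median of -0.15, with 2 of 5 positive.

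A list of receptor genes, among them Cd8a, Cd8b1, Klrd1 and the Ly49 family, had 8 calls in 35 tests, each lower in deleted hosts. Binding of class I is not claimed for every gene in it. These counts include Cd8a and Cd8b1 in T-like cells and Klra4 and Klra8 in NK-like cells, which helped to name those classes. The counts of calls in those classes are therefore not read as results. In T-like cells 4 of 8 tested fell, where 0.434% of all genes did. Klrd1, which encodes CD94, averaged 2.06 in deleted and 5.93 in wild-type hosts (-1.63, limma, adjusted p = 0.0409), and Cd160, a receptor of classical and nonclassical class I, 0.0785 in deleted and 0.382 in wild-type hosts (-1.40, limma, adjusted p = 0.0296). The other two, Cd8a and Cd8b1, helped to name the T-like class, so their values are not read as results. A cluster of 322 cells led by Cd8a, Cd8b1 and Klrd1, with macrophage markers detected in it, stayed outside any class. The Cd8a-led cluster, which Klrd1 also leads, is a smaller part of the T-like class in deleted hosts, as given above. Restricted to those with UMIs of Cd8a or Cd8b1 and none of Cd4, the difference was -0.74 for Klrd1 and -0.53 for Cd160, with adjusted p = 0.516 and 0.758 by limma. In dendritic-like cells 1 of 5 fell, where 0.0532% of all genes did. It was Klrd1, with 0.327 in deleted and 1.97 in wild-type hosts (-2.29, limma, adjusted p = 0.00697). NK markers summed to 0.181 to 0.696 in deleted and 0.949 to 2.13 in wild-type libraries in T-like cells, and to 0.00724 to 0.0639 in deleted and 0.133 to 0.495 in wild-type libraries in dendritic-like cells, and their part in the Klrd1 and Cd160 results was not tested.

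In NK-like cells 3 of 15 receptors fell, where 0.751% of all genes did, while 8 of 15 differences were positive, with a median of 0.04 against 0.03 over all genes. Klra9, a Ly49 receptor gene, averaged 0.0247 in deleted and 0.599 in wild-type hosts (-2.52, limma, adjusted p = 0.00343), and it was at most 0.000107 in any malignant-like library. Its NK-like level was 0 to 0.0988 in deleted and 0.421 to 0.807 in wild-type libraries. The others, Klra4 and Klra8, helped to name the NK-like class and are included in the count of 3. Klra4 averaged 0.0443 in deleted and 0.977 in wild-type hosts. Malignant-like cells held more of it, 0.675 in deleted and 1.98 in wild-type hosts. The malignant markers in NK-like cells, given above, were higher in wild-type libraries, and their part in the Klra4 level was not tested. Klra8 averaged 0 over the 443 NK-like cells of deleted hosts and 0.677 in wild-type hosts. A gene entered the test in this class if seen in 5% or more of the cells in 3 libraries. Klra8 thus entered through the wild-type libraries alone, and Klra9 and Klra4, near 0 in deleted libraries, may have done so. The p-value of Klra9 is therefore not read as support. What lies behind these near-absent levels was not tested. The 7 NK markers in the NK-like class summed to 4.69 to 7.38 in deleted and 6.78 to 9.23 in wild-type libraries. The 9 T cell markers there summed higher, to 11.8 to 19.0 in deleted and 14.1 to 26.2 in wild-type libraries. The part of T cells in the receptor levels was not tested. Under the alternatives, Klra9 stayed past the threshold in 17 of 18, Klrd1 of dendritic-like cells in 18 of 19, Gbp4 in 12 of 21, Iigp1 in 12 of 20 and Cd274 in 6 of 20. For Klra9 the limit set by the filter applies to these alternatives as well. In T-like cells Igtp stayed past it in 12 of 21, Bst2 in 11 of 21, Klrd1 in 10 of 21 and Cd160 in 10 of 19, and in NK-like cells Bst2 did in 9 of 18.

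The genes whose pattern was most like that of the classical pair and B2m were looked for among 1799 genes tested in all classes. The measure was Pearson's r, over 54 library-by-class values centred on each class, with the mean of standardized B2m, H2-K1 and H2-D1. Of the other members H2-Q7 had r = 0.68, H2-T22 0.49, H2-Q4 0.30, H2-Q6 0.18 and H2-T23 -0.14, and H2-M3 was not among the genes tested in all classes. Outside the family Nr1h2 (0.72), Scarb2 (0.72), Itgb1 (0.72), Dusp6 (0.68) and Ube2q1 (0.68) came highest. The points share libraries, depth and the barcode sets, so these values are a description.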

How the data were processed

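RNA of single tumor cells was measured in 8 libraries, 4 per host genotype. Per the values themselves, the authors deposited natural log values of 1 plus UMIs per 10000, since back-transformed values sum to 10000 in every cell. Whole UMIs were recovered for 100% of values within 0.01. Per the submitters' processing notes, Cell Ranger 2.1, Seurat 3.0 and mm10 were used, with no further step given in the sources used here. The members, lists and marker genes were chosen with earlier results of these data known, and the p-values measure only the spread between these libraries.

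Filters removed 919 cells (under 200 genes, or mitochondrial UMIs above 10%) and 89 called doublets. The caller marked too few cells to count as a working filter, so doublets remain. Cells were clustered in scanpy 1.11.5 with Leiden (igraph 0.11.9, resolution 1) on 2008 variable genes without the members, 30 principal components and 15 neighbors. Clusters were named from marker lists, and 27753 cells fell in 7 classes.

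Levels were back-transformed and averaged per class and library, with at least 20 cells. Genes seen in 5% or more of the cells in 4 libraries (3 where a group had 3) were tested with limma 3.58.1 in R 4.3.3 on log2(level + 0.1), with Benjamini-Hochberg adjustment over all genes of the class at 0.05, after a check on simulated data. Log2 differences are on this scale, which understates changes of low genes. Single values were tested by two-sided exact permutation over libraries. Counts at an unadjusted p under 0.05 have no share of all genes beside them and are descriptions. Intervals cover counting error only. Named genes were the 9 members, up to 4 genes per list and class past the threshold, and the 5 nonmembers most alike. The alternatives changed the pseudocount, filter, averaging, scaling, clustering, depth and barcode set term, and left out each library. Comparison of protein sequences was not done.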

Additional observations from a re-analysis of the deposited data

Results flagged for a closer look

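In 6 of 120 groups of 4 libraries, 1 library stood apart from the other 3 by the gap test of Dixon, about the 1 in 20 that chance gives. H2-K1 in neutrophil-like cells was 29.0 UMIs per 10000 in deleted library 8, against 52.1 to 54.6 in the other deleted libraries, and still above every wild-type library. In the same cells H2-T22 was 2.30 in wild-type library 6, against 0.912 to 1.12 in the other wild-type libraries. Summed H2-Q6 and H2-Q7 there was 3.63 in wild-type library 2, against 1.98 to 2.20 in the others. H2-Q6 in monocyte/macrophage-like cells was 2.00 in wild-type library 6, against 1.22 to 1.27. In T-like cells H2-T22 was 3.65 in wild-type library 6, against 1.84 to 2.15, and H2-M3 was 1.02 in wild-type library 2, against 0.408 to 0.499.

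The genotype difference of neutrophil-like cells exceeded that of monocyte/macrophage-like cells by 2.86 (log2) for H2-Q6 (limma, adjusted p = 0.00443) and by 2.45 for H2-Q7 (limma, adjusted p = 0.0269). The pair of classes was chosen after seeing the data.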

How the results depend on the processing

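No paired analysis was possible because the groups share no replicate numbers; a barcode set term was fitted in its place. The count of members past the threshold stayed at 0 under every alternative run in malignant-like, fibroblast-like, monocyte/macrophage-like, dendritic-like and NK-like cells. In neutrophil-like cells it was 3, and became 0 without the filter on low values (13392 genes tested, 0 called), 1 with median-ratio scaling, 1 with cells of at least 1000 UMIs (deleted library 7 then drops out) and 0 to 2 when a library was left out (1 without wild-type 2). None of 175 member values there changed sign. The summed level of H2-Q6 and H2-Q7 in that class kept a log2 ratio of 2.29 to 2.78 when a library was left out. In T-like cells the count became 2 with the barcode set term.

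For neutrophil-like minus monocyte/macrophage-like cells the count of 2 became 1 with pseudocount 0.02, 0 with the mean of log values, 0 with the members among the variable genes (a cluster of 3146 shallow cells led by macrophage genes then stayed unnamed), 0 with cells of at least 1000 UMIs, and 0 to 2 when a library was left out. The log2 ratio of summed H2-Q6 and H2-Q7, -0.08 in malignant-like cells, ran from -0.29 to 0.09 when a library was left out, and changed sign without wild-type library 2 (0.07) or deleted library 8 (0.0874). In NK-like cells, at -0.01, it ran from -0.22 to 0.21, and became 0.46 with median-ratio scaling, 0.00318 with the members among the variable genes and 0.0939 with cells of at least 1000 UMIs. The share of malignant-like cells without H2-K1 or H2-D1 UMIs differed by 5.07 percentage points without thinning, against 3.59 with it. The causes were not tested.

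Median-ratio scaling also changed the calls over all genes: 1 higher and 1 lower in neutrophil-like cells in place of 11 and 3, and 143 higher and 440 lower in NK-like cells in place of 1 and 54. Depth limits H2-M3 of neutrophil-like cells, which was not tested, and 39 cells of deleted library 7 and 65 of wild-type library 1 carry single values.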
